A study of Mus musculus with 6 samples.

Results

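Translation factors are the proteins that start, extend and end protein synthesis on the ribosome. Ribosome footprints were counted here on the genes of 32 of them, out of 22322 genes in the deposited table, in resting and activated mouse CD4+ T cells. The genes were chosen by name as a set and found by their Ensembl IDs. The set holds 5 factors grouped as scanning and start selection and 10 subunits of eIF3. It also holds 8 genes of the eIF4 group with the poly(A)-binding protein Pabpc1, 7 genes of elongation and 2 of termination. Every member was found once, and every member passed the low-count filter.

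Both groups held CD4+ T cells purified by negative selection from the spleen and lymph nodes of C57BL/6J females aged 6 weeks, with no gene altered. Resting cells were left unstimulated, and activated cells had been given beads that carry antibodies to CD3 and CD28. Each group had 3 libraries, numbered 2, 3 and 4, labelled untreated and 0 h. Below, 3 values in a row are those of replicates 2, 3 and 4 in that order. The inhibitors of transcription and translation used elsewhere in the study had not been added. The labels call them biological replicates without naming an animal, pool or culture for each, so a p-value measures the spread among these 6 libraries and that spread may be technical. How long the beads were left on is not stated in the labels.

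Counts in coding sequence (CDS) summed to between 437200 and 1074656 a library, and 6775 genes were tested. The table gives Ensembl IDs alone, and the symbols of the 32 genes came with the list that defined the set. No table used here pairs the other IDs with symbols, so T cell markers, markers of other cell types and further translation factors were not analysed here. In a count of footprints, more mRNA and more ribosomes on each mRNA cannot be told apart, and neither can fewer cells of a type and less RNA per cell.

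Initiation begins when eIF2 brings the first tRNA to the small ribosomal subunit, with eIF1, eIF5 and the large scaffold eIF3, and the eIF4 factors bring that subunit to the capped end of the mRNA. Elongation is driven by eEF1A, which delivers tRNAs, and eEF2, which moves the ribosome on, and termination by the release factors eRF1 and eRF3. Resting T cells are known for low protein synthesis, which increases greatly when they are activated. Many mRNAs of this machinery begin with a 5' terminal oligopyrimidine (TOP) stretch, a C at the first base followed by a run of C and T in the gene, through which mTORC1 controls their translation. Of the 32 genes, 11 are on a list of such mRNAs drawn up from general knowledge: Eef1a1, Eef1b2, Eef1d, Eef1g, Eef2, Eif3e, Eif3f, Eif3h, Eif4b, Pabpc1 and Tpt1.

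The bases around annotated gene starts are shown for 5 members, 4 from that list and Eif5, the member whose CDS footprints fell. Each window holds 30 bases, 10 before the start and 20 from it on, 5' to 3' on the gene's strand, from RefSeq on GRCm38.p6, the assembly behind the mm10 build of the files. Capitals mark a C followed by at least 4 bases that are each C or T, searched on the sense strand alone, with its first base within 10 bases of the start and the longest stretch kept.
Eef1a1 at chr9:78481705-78481734, minus strand: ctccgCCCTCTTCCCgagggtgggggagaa
Eif3f at chr7:108934405-108934434, plus strand: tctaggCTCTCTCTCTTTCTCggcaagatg
Eef2 at chr10:81176621-81176650, plus strand: aaggccgggcgttgacgtcagcggtctctt
Tpt1 at chr14:75845246-75845275, plus strand: cgctgacgacagttccgggggagccgcgga
Eif5 at chr12:111538091-111538120, plus strand: cgacgtgcatgcgagccaatgacaagagaa
Eef1a1 had a stretch of 10 bases and Eif3f one of 15. The table of starts matched 23 of the 32 genes, of which 6 had a stretch: 2 of the 6 matched genes on the TOP list and 4 of the 17 others. Among all 27025 genes of that table the share was 33.3%. An annotated start need not be the start used in T cells.

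Almost all of these 32 translation factors carried more CDS footprints in activated cells. Of the 32 genes, 30 changed (45.5% of all genes tested did): 29 rose and 1 fell (Eif5), while Eif4a2 and Eif4g2 did not pass the threshold, by edgeR's quasi-likelihood test with Benjamini-Hochberg adjustment over all genes and a threshold of 0.05. Among all genes tested 24.1% rose and 21.4% fell. By at least 2-fold, 21 of the 32 rose, against 14.7% of all genes. The median log2 change was 1.13 over the 32 genes and -0.04 over all genes tested. Levels of activated and resting libraries did not overlap for 31 of the 32, against 54.8% of all genes. Activated libraries lay above resting libraries for 29 genes (28.1% of all genes) and below them for Eif5 and Eif4a2 (26.7% of all genes). Eif4g2 alone overlapped.

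The rises were relative to the typical gene. Levels are in CPM, CDS counts set to a common library size scaled by TMM, which sets the bulk of genes to no change. Scaling by library totals alone moved the median of all genes from -0.04 to -0.38 and that of the 32 genes from 1.13 to 0.80, with 27 higher and 2 lower. Upper quartile factors put these medians at -0.17 and 1.00, with 28 higher and 2 lower. Under both scalings the gene added to the falls was Eif4a2.

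**Figure D1:**
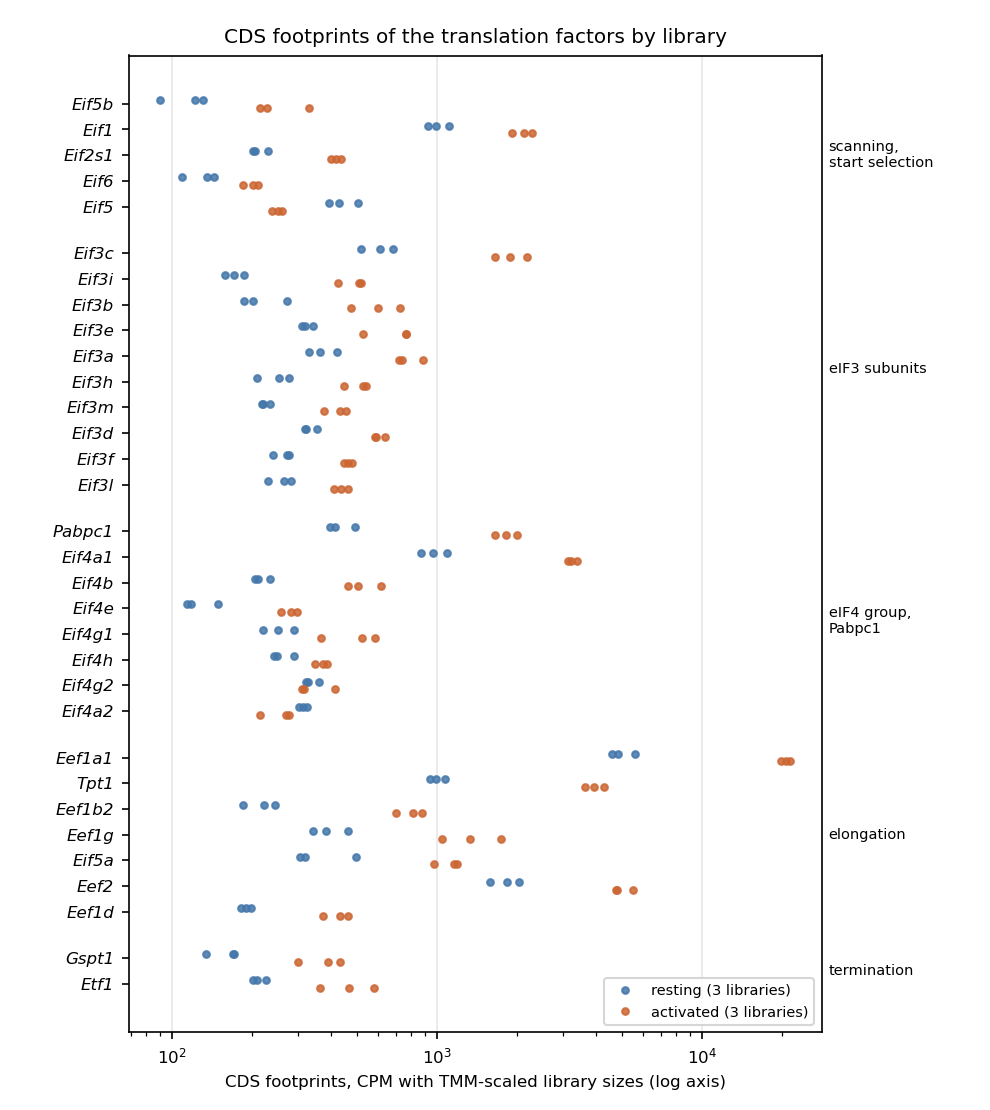
CDS footprints of the 32 genes in CPM on a log axis, 1 point per library, blue for resting and orange for activated, grouped by role and ordered by change. Activated points lie to the right of all resting points in 29 rows and to the left for Eif5 and Eif4a2. For Eif4g2 they lie on both sides of the resting points.

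**Figure D2:**
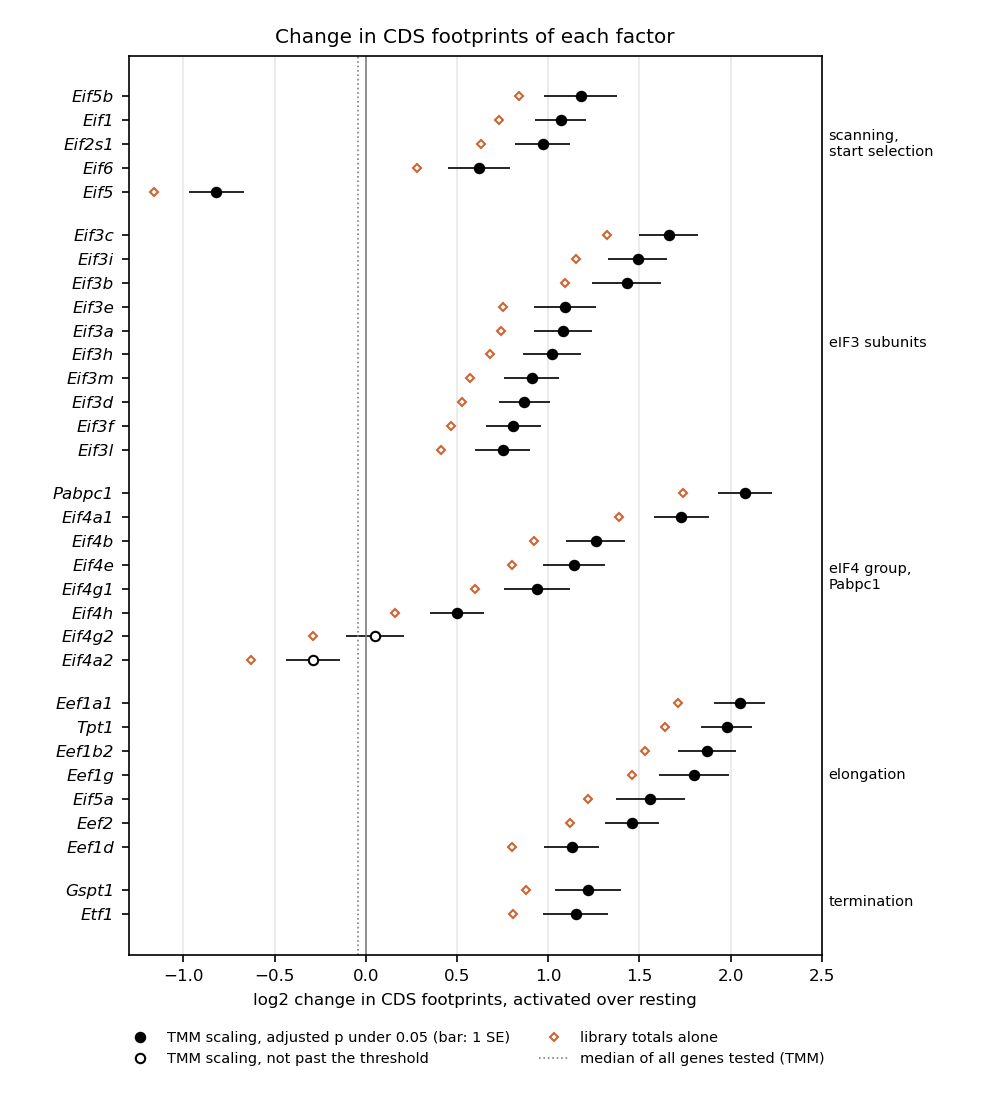
Log2 change in CDS footprints, activated over resting, with 1 SE as the bar, filled where the adjusted p was under 0.05; diamonds give the change with library totals alone. Changes reach 2.08 for Pabpc1, and the diamonds sit lower for each gene, on the other side of 0 for Eif4g2.

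As a share of all CDS counts, which needs no scaling factor, the 32 genes held 1.94%, 1.81% and 1.89% in the resting libraries. They held 4.47%, 4.43% and 4.58% in the activated libraries. The share was thus 2.39 times as large in activated cells, a gap of 2.62 percentage points beside SDs of 0.0654 and 0.0743 (n = 3 each). Eef1a1 alone went from 0.545 ± 0.0552% to 1.80 ± 0.0898% (SD, n = 3). Without it the other genes held 1.33 ± 0.0257% and 2.69 ± 0.0761% (SD, n = 3).

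By role, the ratio of activated to resting shares ranged from 1.35 to 2.96. The elongation genes went from 0.981 ± 0.0825% of all CDS counts to 2.90 ± 0.0145%, a ratio of 2.96. The eIF4 group with Pabpc1 went from 0.318 ± 0.0108% to 0.637 ± 0.029%, a ratio of 2.00, and eIF3 from 0.329 ± 0.0206% to 0.599 ± 0.0215%, a ratio of 1.82. Termination factors had a ratio of 1.81. The smallest ratio, 1.35, was that of scanning and start selection, from 0.208 ± 0.0148% to 0.282 ± 0.0242% (SD, n = 3 throughout). Each sum weighs a gene by its counts, and Eef1a1 alone held 0.545% and 1.80% within elongation. By gene, the median log2 change was 1.80 in elongation and 1.18 in termination. It was 1.04 in the eIF4 group with Pabpc1, 1.05 in eIF3 and 0.97 in scanning and start selection. The sums carry no test, since the genes were chosen with earlier results known, and differences between roles were not tested.

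**Figure D3:**
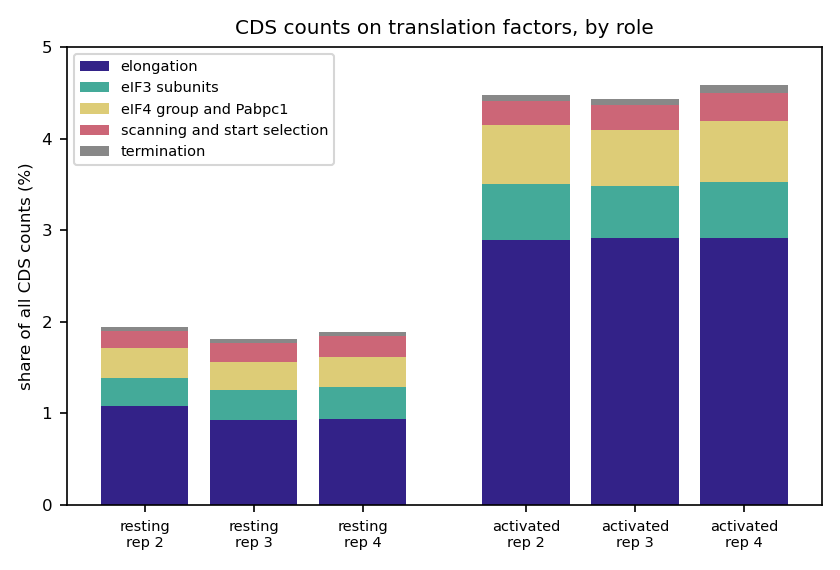
Share of all CDS counts of each library, in percent, held by the 32 genes, stacked by role from 0. Resting libraries reach 1.81% to 1.94% and activated libraries 4.43% to 4.58%, and the elongation segment is the tallest in each.

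Among the 5 genes grouped as scanning and start selection, 4 rose and 1 fell. Eif1, which keeps the scanning subunit open until a good start codon is met, had 992, 926 and 1111 CPM in the resting against 1920.1, 2131 and 2289 CPM in the activated libraries. All activated libraries were well above all resting ones, a log2 change of 1.07 (SE 0.14, edgeR's adjusted p = 1.78e-05). Eif5b, the GTPase that joins the large subunit, rose from 90.4, 122 and 131 CPM to 216, 228 and 330 CPM (log2 change 1.18, SE 0.20, edgeR's adjusted p = 1.63e-04). Eif2s1 encodes the alpha subunit of eIF2, whose phosphorylation dampens initiation under stress. It rose from 213 ± 15.5 to 417 ± 17.3 CPM (SD, n = 3; log2 change 0.97, SE 0.15, edgeR's adjusted p = 5.58e-05). Eif6, which keeps free large subunits from joining, had 109, 136 and 144 CPM in resting against 186, 212 and 202 CPM in activated libraries. Its log2 change of 0.62 (SE 0.17, edgeR's adjusted p = 0.00607) was the smallest rise of this role. With library totals alone it was 0.28 and no longer past the threshold (edgeR's adjusted p = 0.163).

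Eif5 (ENSMUSG00000021282) was the member that fell. It encodes the GTPase-activating protein that makes eIF2 hydrolyse its GTP once the start codon is found, and its mRNA is known for upstream reading frames in its leader. CDS footprints were at 391, 503 and 427 CPM in the resting libraries and at 261, 238 and 252 CPM in the activated libraries. Every activated library was below every resting one, a log2 change of -0.82 (SE 0.15, edgeR's adjusted p = 3.87e-04). The fall was one of CDS counts. Over all exon counts, which include the leader, the log2 change was -0.26 (edgeR's adjusted p = 0.166).

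All 10 eIF3 subunits rose, with log2 changes from 0.75 to 1.66 and a median of 1.05. eIF3 is the largest initiation factor and binds the small subunit, eIF4G and the mRNA. Eif3c (ENSMUSG00000030738), a core subunit, rose from 517, 608 and 682 CPM in the resting libraries to 2190.5, 1658 and 1881 CPM in the activated libraries (log2 change 1.66, SE 0.16, edgeR's adjusted p = 5.21e-07). Eif3i, a WD-repeat subunit, rose from 187, 159 and 171 CPM to 509, 518 and 425 CPM (log2 change 1.49, SE 0.16, edgeR's adjusted p = 1.30e-06). At the other end stood Eif3f and Eif3l. Eif3f had 271, 240.1 and 278 CPM in resting against 445, 463 and 477 CPM in activated libraries (log2 change 0.81, SE 0.15, edgeR's adjusted p = 2.75e-04). Eif3l went from 231, 281 and 264 CPM to 461, 409.8 and 436 CPM (log2 change 0.75, SE 0.15, edgeR's adjusted p = 7.08e-04). No subunit's activated libraries overlapped its resting ones.

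By position in the complex, Eif3a, Eif3b and Eif3i, which sit together, had log2 changes of 1.08, 1.43 and 1.49. The neighbours Eif3d, Eif3e and Eif3l had 0.87, 1.09 and 0.75, and Eif3f, Eif3h and Eif3m had 0.81, 1.02 and 0.91. Each of these 9 changes had an SE between 0.14 and 0.19, and differences between subunits were not tested. Of all eIF3 footprints in a library, Eif3c held 18.2%, 20.3% and 21.3% in the resting against 30.6%, 25.2% and 27.1% in the activated libraries. Its share was larger in each activated library than in any resting one. For Eif3d, Eif3f, Eif3l and Eif3m each activated share was below every resting share, and for the other 5 subunits the groups overlapped. The shares of a library add up to the whole, so a larger share of Eif3c comes with smaller shares elsewhere. CDS footprints of Eif3d, Eif3f, Eif3l and Eif3m themselves rose. These shares were computed after the changes had been seen and carry no test.

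In the eIF4 group with Pabpc1, 6 of 8 genes rose and 2 did not pass the threshold. Pabpc1 (ENSMUSG00000022283) binds the poly(A) tail and eIF4G, and it showed the largest log2 change of the 32 genes. It had 492, 414 and 395 CPM in the resting against 2016, 1652 and 1825 CPM in the activated libraries (log2 change 2.08, SE 0.15, edgeR's adjusted p = 3.45e-08). Eif4b, which stimulates the helicase eIF4A, rose from 217 ± 15.6 to 526 ± 78.7 CPM (SD, n = 3; log2 change 1.26, SE 0.16, edgeR's adjusted p = 8.79e-06). Eif4e, the cap-binding protein, rose from 127 ± 19.4 to 279 ± 20.1 CPM (SD, n = 3; log2 change 1.14, SE 0.17, edgeR's adjusted p = 3.48e-05). Eif4h, another helper of eIF4A, had 260.1 ± 24.4 CPM in resting and 368 ± 20.5 CPM in activated cells (SD, n = 3). Its log2 change of 0.50 (SE 0.15, edgeR's adjusted p = 0.0116) was lost under several alternatives. It was 0.46 without resting replicate 3 (edgeR's adjusted p = 0.0589), 0.47 without resting replicate 4 (0.0523), 0.36 with upper quartile factors (0.0550) and 0.16 with library totals alone (0.369).

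The helicase paralogs moved apart. Eif4a1 and Eif4a2 encode near-identical proteins that unwind the leader, and reads common to both genes cannot be assigned to either. Eif4a1 (ENSMUSG00000059796) rose from 969, 869 and 1093 CPM in the resting libraries to 3122, 3199 and 3387 CPM in the activated libraries (log2 change 1.73, SE 0.15, edgeR's adjusted p = 1.25e-07). Eif4a2 (ENSMUSG00000022884) had 303, 313 and 323 CPM in resting against 216, 269 and 276 CPM in activated libraries. Its groups did not overlap, but the log2 change of -0.29 (SE 0.15, edgeR's adjusted p = 0.126) did not pass the threshold. With upper quartile factors it was -0.43 (edgeR's adjusted p = 0.0303), and with library totals alone -0.63 (0.00279). The ratio of Eif4a1 to Eif4a2 counts was 3.2, 2.78 and 3.39 in the resting against 14.5, 11.9 and 12.3 in the activated libraries. It needs no scaling between libraries, and it was higher in all activated libraries, by 2.04 on the log2 scale.

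The scaffold paralogs were compared in the same way. Eif4g1, which joins the cap-binding protein, the helicase and eIF3, rose from 221, 289 and 252 CPM in the resting libraries to 523, 365 and 583 CPM in the activated libraries (log2 change 0.94, SE 0.18, edgeR's adjusted p = 5.92e-04). Eif4g2 (ENSMUSG00000005610) encodes DAP5, a relative that lacks the part binding the cap-binding protein. It had 322, 358 and 326 CPM in resting against 316, 310.5 and 412 CPM in activated libraries, and the groups overlapped (log2 change 0.05, SE 0.16, edgeR's adjusted p = 0.808). Its sign turned with upper quartile factors (-0.09), with library totals alone (-0.29) and without activated replicate 4 (-0.07), none past the threshold. The ratio of Eif4g1 to Eif4g2 counts was 0.686, 0.805 and 0.774 in resting against 1.65, 1.17 and 1.42 in activated libraries, a difference of 0.90 on the log2 scale. For each paralog ratio the exact two-sided permutation p was 0.1 (0.1 after adjustment over both), the smallest that 3 against 3 libraries can give.

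All 7 elongation genes rose by at least 2-fold, with a median log2 change of 1.80. Eef1a1 (ENSMUSG00000037742) had 5578, 4594 and 4823 CPM in the resting against 19842, 20808 and 21563 CPM in the activated libraries, which is about 4.15-fold (log2 change 2.05, SE 0.14, edgeR's adjusted p = 1.87e-08). Eef1a1 has many processed copies in the mouse genome, and records that align more than once were left out of gene counts. Tpt1 (ENSMUSG00000060126), a TOP mRNA whose protein binds the elongation factor complex, rose from 1070.3, 991 and 939 CPM to 3927, 4258 and 3629.9 CPM (log2 change 1.98, SE 0.14, edgeR's adjusted p = 2.71e-08). Eef2 (ENSMUSG00000034994) rose from 2042, 1836 and 1594 CPM to 5519, 4747 and 4778 CPM (log2 change 1.46, SE 0.15, edgeR's adjusted p = 8.00e-07). In these 3 genes the gap between the groups was several times the spread within them.

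The exchange factor eEF1B, which recharges eEF1A with GTP, is made of the products of Eef1b2, Eef1d and Eef1g. Eef1b2 rose from 218 ± 30.8 to 798 ± 91.6 CPM (SD, n = 3; log2 change 1.87, SE 0.16, edgeR's adjusted p = 1.88e-07). Eef1g rose from 395 ± 62.4 to 1373 ± 352 CPM (SD, n = 3; log2 change 1.80, SE 0.19, edgeR's adjusted p = 1.37e-06), with activated libraries spread from 1042 to 1743 CPM. Eef1d, with 191, 199.5 and 183 CPM in resting against 461, 431 and 373 CPM in activated libraries, had the smallest change of the 7 (1.13, SE 0.15, edgeR's adjusted p = 1.75e-05). Eif5a carries the modified residue hypusine and helps ribosomes past difficult peptide bonds. It rose from 305, 319.5 and 496 CPM to 1191, 978 and 1160.3 CPM (log2 change 1.56, SE 0.19, edgeR's adjusted p = 4.41e-06).

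Both release factors rose by a like amount. Etf1 encodes eRF1, which reads stop codons, and had 202, 209 and 227 CPM in resting against 361, 466 and 580.1 CPM in activated libraries (log2 change 1.15, SE 0.18, edgeR's adjusted p = 6.51e-05). Gspt1 encodes its GTPase partner eRF3a and went from 135, 170.3 and 172 CPM to 432, 299 and 389.6 CPM (log2 change 1.22, SE 0.18, edgeR's adjusted p = 3.48e-05). The groups did not overlap for either gene.

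All 11 genes on the TOP list rose, 10 of them by at least 2-fold, with a median log2 change of 1.46. Of the other 21 genes 18 rose, 1 fell and 2 did not pass the threshold, with a median of 1.07. The ranges overlapped widely, at 0.81 to 2.08 on the list and -0.82 to 1.73 off it. The list holds 6 of the 7 elongation genes, so list and role cannot be separated here, and the difference was not tested.

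Footprints in the leader (5' UTR) were compared with those in the CDS. Of the 32 genes, 26 had a 5' UTR count and 6 had none in any library, which can depend on the leader annotated. On 5' UTR counts alone, 15 of 18 genes tested rose and 0 fell, against 22.2% and 19.8% of all genes tested there. Of the 19 genes with enough leader counts to be tested against the CDS, 9 had more leader counts per CDS count in every activated library than in any resting one, against 17.2% of all genes tested. The ratio was lower without overlap for 3, against 3.6% of all genes, and the groups overlapped for 7. By the test, 1 of the 19 changed relative to the CDS (Pabpc1), and it was lower, against 0.6% of all 3169 genes tested in either direction and 0.41% lower. At an unadjusted p under 0.05 there were 5 of the 19, against 11.1% of all genes: Eif5 and Eif3d towards higher, and Pabpc1, Eef1a1 and Gspt1 towards lower. The test was an edgeR model with a term per library and separate scaling of each region, so its direction is relative to the typical gene, while the ratios per 100 CDS counts are not scaled. A gene that did not pass is not shown to have kept its ratio.

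Pabpc1, whose leader holds an A-rich stretch that its own protein is known to bind, had 53.4, 85.9 and 81.7 leader counts per 100 CDS counts in the resting libraries. It had 37.7, 37.9 and 38.4 in the activated libraries. All activated libraries were below all resting libraries and nearly equal to each other. Leader counts rose on their own (log2 change 0.86, SE 0.21, edgeR's adjusted p = 0.00376), but less than CDS counts, and the ratio changed by -1.28 (SE 0.26, edgeR's adjusted p = 0.0210). This call is fragile. The change was -1.24 without resting replicate 3 (edgeR's adjusted p = 0.130), -1.17 without resting replicate 4 (0.203), -1.32 without activated replicate 3 (0.0848) and -0.93 with 1 scaling for both regions (0.169).

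Eif5 had 73.1, 61.9 and 94.2 leader counts per 100 CDS counts in the resting against 166, 154 and 173 in the activated libraries. In activated cells it thus had more footprints in its leader than in its coding sequence, and the groups did not overlap. Its leader counts did not pass the threshold on their own (log2 change 0.02, SE 0.23, edgeR's adjusted p = 0.954), while its CDS counts fell. The log2 change of the ratio was 0.79 (SE 0.27, unadjusted p = 0.00719), short of the threshold after adjustment (edgeR's adjusted p = 0.245). Without activated replicate 2 it was 0.93 and past the threshold (edgeR's adjusted p = 0.0435). Without any other library it was 0.55 to 0.97 and did not pass (edgeR's adjusted p = 0.326 to 0.615). With 1 scaling for both regions it was 1.12, also short of the threshold (edgeR's adjusted p = 0.133).

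For Eef1a1 the ratio was 7.20, 6.85 and 8.44 per 100 in resting against 5.47, 4.69 and 6.32 in activated libraries. These groups did not overlap, and the log2 change was -0.80 (SE 0.23, edgeR's adjusted p = 0.154). It was -1.06 without activated replicate 4, then past the threshold (edgeR's adjusted p = 0.0253). Without any other library it was -0.95 to -0.64 and did not pass (edgeR's adjusted p = 0.157 to 0.479). With 1 scaling for both regions it was -0.45, also short of the threshold (edgeR's adjusted p = 0.379). Gspt1 went from 23.3 ± 6.88 to 15.7 ± 0.853 per 100 (SD, n = 3; edgeR's adjusted p = 0.296), and Eif3d from 6.42 ± 0.412 to 14.3 ± 2.81 per 100 (SD, n = 3; edgeR's adjusted p = 0.348). Eif4g2, which starts at a GUG codon, had 31.4, 32.6 and 32.1 per 100 in resting against 87.1, 42.9 and 36.7 in activated libraries. Its groups did not overlap, but the change did not pass the threshold (log2 change 0.33, SE 0.28, edgeR's adjusted p = 0.729). The library of activated replicate 2 had the highest activated ratio for 11 of the 19 genes. Over all genes it held 20 leader counts per 100 CDS counts, against 14 to 15.5 in the other libraries, and the part of this in the members' ratios was not tested.

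**Figure D4:**
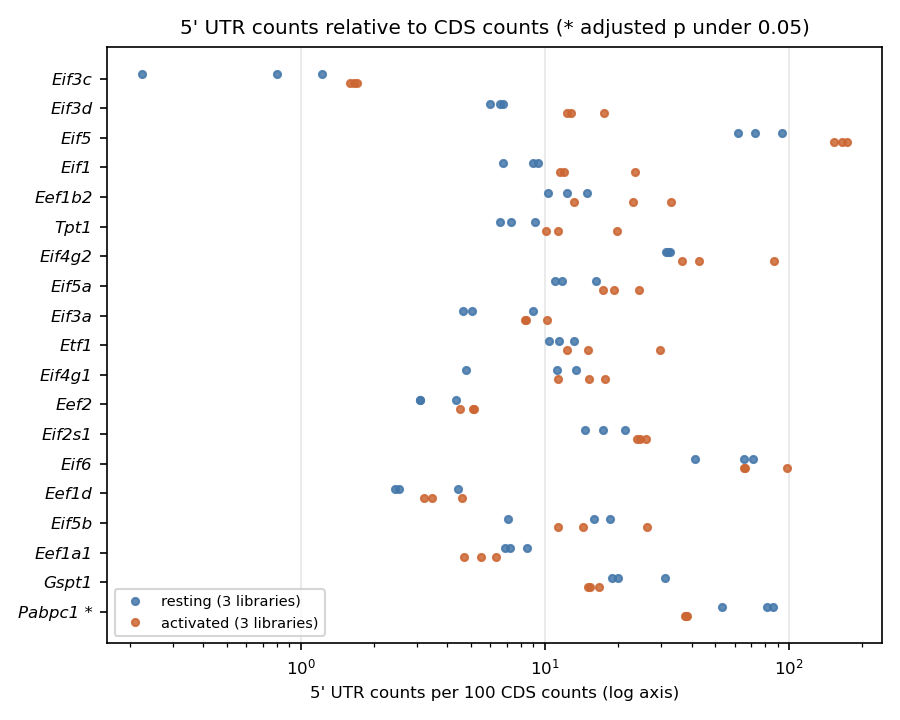
Leader (5' UTR) counts per 100 CDS counts on a log axis for the 19 genes tested, 1 point per library, ordered by fitted change with the highest on top; the star marks an adjusted p under 0.05. Eif5 lies above 100 in all 3 activated libraries, and Pabpc1 lies lower in all 3 activated libraries than in any resting one.

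Counts in the 3' UTR and in introns were compared with the CDS by the same model, chosen after the data had been seen. In the 3' UTR, where ribosomes are not expected to translate, 3 of 8 genes tested were lower relative to the CDS, against 2.01% of the 249 genes tested (2.41% in either direction). Over all genes, libraries held 4.46, 2.91 and 2.22 3' UTR counts per 100 CDS counts in resting against 4.29, 2.29 and 1.39 in activated cells. Eef1a1 had 9.65, 9.43 and 5.19 3' UTR counts per 100 CDS counts in resting against 1.36, 1.01 and 0.661 in activated libraries (log2 change -2.89, SE 0.36, edgeR's adjusted p = 3.91e-05). Its 3' UTR counts also fell on their own (log2 change -1.17, SE 0.39, edgeR's adjusted p = 0.0404), as 12.2% of genes tested on that region alone did, while its CDS counts rose. With 1 scaling for both regions the change of the ratio was -3.01 but not past the threshold (edgeR's adjusted p = 0.0900), and with its own scaling it passed with each library left out in turn.

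Eef2 went from 1.38 ± 0.864 to 0.331 ± 0.169 3' UTR counts per 100 CDS counts (SD, n = 3; log2 change -1.92, edgeR's adjusted p = 0.0256). Tpt1 went from 2.10 ± 2.78 to 0.213 ± 0.216 (SD, n = 3; log2 change -2.99, edgeR's adjusted p = 0.0256), with overlapping groups and a single high library, resting replicate 2 at 5.30. Both rest on few counts, 42 and 33 in resting and 32 and 14 in activated cells. With 1 scaling neither passed (edgeR's adjusted p = 0.484 for both). For Eef2 the call was lost without any library, at log2 changes of -2.10 to -1.76 and adjusted p of 0.0503 to 0.116. For Tpt1 it was lost without activated replicate 3 (-2.56, edgeR's adjusted p = 0.106) or 4 (-3.0, 0.0514), and without resting replicate 2 it had too few counts to be tested.

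Intronic counts lay on few members. Of 4879 intronic counts on the 32 genes, 4725 (96.8%) lay on 9 genes: Eif3a, Eif4a1, Eif4a2, Eif4g1, Eif4g2, Eif5, Eef1b2, Eef2 and Tpt1. These are the 9 genes whose span in the RefSeq annotation of GRCm38.p6 holds at least 1 small nucleolar RNA gene, a class of short RNAs processed from introns. Each of the 9 had at least 34 intronic counts over the 6 libraries, and each of the other 23 genes at most 28. Of all 21900 protein-coding genes in that annotation 1.70% hold such a gene. Among the hosted RNAs are Snora28 in Eif5, Snora31 in Tpt1, Snord37 in Eef2, Snora19 in Eif3a and Snord2 and Snora81 in Eif4a2. Whether the counts come from those RNAs was not tested, since the table gives no positions.

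Eif4a2 had the most intronic counts, 545, 411 and 516 in resting against 262, 311 and 454 in activated libraries. That is 279 ± 87.6 and 199 ± 68.3 per 100 CDS counts (SD, n = 3), more than in its coding sequence in every library. Eif5 had 207, 65 and 127 in resting against 101, 72 and 85 in activated libraries. Neither ratio changed past the threshold (edgeR's adjusted p = 0.727 and 0.794).

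Relative to the CDS, intronic counts were lower in activated cells for 5 of the 9 host genes, against 9.8% of all 449 genes tested (13.4% in either direction). Over all genes, libraries held 9.22, 25.1 and 16.4 intronic counts per 100 CDS counts in resting against 7.31, 6.94 and 10.3 in activated cells. The ratios of single genes below are not scaled for this. Tpt1 had 42.0, 15.5 and 19.0 intronic counts per 100 CDS counts in resting against 7.70, 3.51 and 2.38 in activated libraries (log2 change -2.29, SE 0.42, edgeR's adjusted p = 0.00497). Eef1b2 went from 10.9 ± 4.89 to 2.28 ± 0.932 per 100 (SD, n = 3; log2 change -2.04, edgeR's adjusted p = 0.0114). Eif3a changed by -2.37, Eef2 by -1.67 and Eif4a1 by -1.3 (edgeR's adjusted p = 0.0145, 0.0181 and 0.0385). On intronic counts alone 0 of 7 host genes tested changed by edgeR's test (0 also at an unadjusted p under 0.05). Of all genes tested there, 11.2% were higher and 4.58% lower. Eif3a was not among these 7, with 24 intronic counts in resting and 10 in activated cells. CDS counts of the 5 genes named here rose.

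Of these 5 calls, that of Tpt1 held with any library left out. The call of Eef1b2 was lost without resting replicate 4 (-1.62, edgeR's adjusted p = 0.0871) or activated replicate 3 (-1.87, 0.0764), and that of Eif3a without activated replicate 3 (-2.04, 0.0834), while without resting replicate 2 Eif3a had too few counts to be tested. For Eef2 it was lost without resting replicate 2 (-1.43, edgeR's adjusted p = 0.0564) or 4 (-1.61, 0.0900) or activated replicate 3 (-1.59, 0.0919) or 4 (-1.42, 0.0868). For Eif4a1 it was lost without any library but activated replicate 2, at log2 changes of -1.40 to -1.05 and adjusted p of 0.0900 to 0.201, and with 1 scaling for both regions (-1.56, 0.0571).

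**Figure D5:**
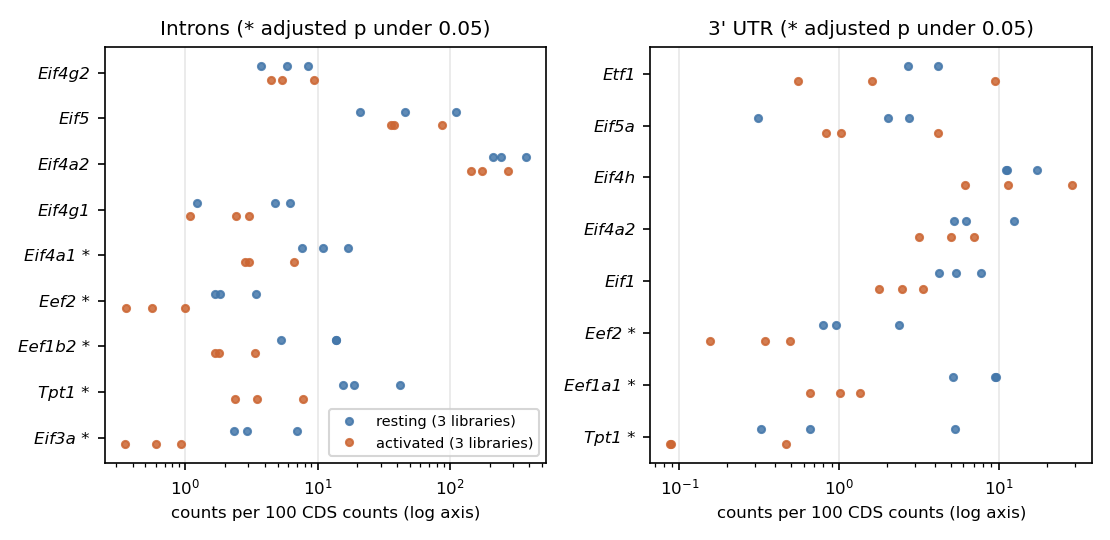
Intronic (left) and 3' UTR (right) counts per 100 CDS counts on log axes for the genes tested, 1 point per library, stars for an adjusted p under 0.05; a value of 0 for Etf1 in resting replicate 3 is not drawn. In introns, all activated points of Tpt1, Eef1b2, Eef2, Eif3a and Eif4a1 lie lower than the resting points. In the 3' UTR this holds for Eef1a1, Eif1 and Eef2.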

How the data were processed

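The authors deposited raw counts per gene, with 6 count columns per library (CDS in 2 modes, 5' UTR, 3' UTR, exons, introns alone) per the file headers. Per the submitters' processing notes, reads were handled with TopHat2 2.0.13, Bowtie 1.1.1.0 and HTSeq on mm10. For annotation, trimming and strand the labels name no setting, so overlapping genes on opposite strands cannot be told apart. Rows that name no gene (not uniquely aligned 65.8% to 79.6% of CDS-column records, in no CDS 11.8% to 14.5%) entered neither library sizes nor tests.

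CDS counts of all genes were fitted with edgeR 4.0.16 in R 4.3.3 (filterByExpr, TMM, glmQLFit, glmQLFTest, two-sided, Benjamini-Hochberg). SE is the change over the square root of F. 5' UTR, 3' UTR and intron counts were tested against the CDS for genes with a mean of at least 5 counts a library in the region. The CDS and 5' UTR fits were tested on simulated counts with known changes. The 5' UTR fit recovered fewer of them and made a larger share of false calls, above the 0.05 threshold. Each fit had a single simulated run, so whether that share exceeds the threshold beyond the scatter of such runs was not tested. The simulated counts of both regions took their spread from the CDS counts, with as many rises as falls. The 3' UTR and intron fits were not simulated. Alternatives were other scalings, DESeq2 1.42.0, limma 3.58.1 (voom), no filter, a replicate block, other counting columns, each library left out and, added after seeing the data, edgeR's bias-adjusted quasi-likelihood setting.

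The members and lists were chosen with earlier results of these data known. All 32 members are named. Values per library are given for the 2 highest and 2 lowest changes of each role, both paralog pairs and members called in the 5' UTR, and for some others. Protein or coding lengths were not used here. Paralog ratios, eIF3 shares and role sums are thus in counts not set to length, and give no relative levels of different genes.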

Additional observations from a re-analysis of the deposited data

How the results depend on the processing

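Of the 32 changes in CDS footprints, 27 kept their direction and their side of the threshold under all 16 alternatives run; the exceptions are Eif4a2, Eif4g2, Eif4h, Eif5 and Eif6. Between 29 and 30 genes changed and between 27 and 29 rose. The count of lower genes was 2 with upper quartile factors or library totals alone and 0 with exon counts, against 1, and 1 without each library. Eif4g2 turned sign, to -0.09, -0.29 and -0.07, with upper quartile factors, library totals alone and without activated replicate 4 (-0.07 to 0.16 without each library).

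The gain in the share of CDS counts was 2.62 percentage points, 2.27 in exon counts, 2.5 in intersection-nonempty mode and 1.36 without Eef1a1. Genes changed in the 5' UTR relative to the CDS numbered 1, 0 with 1 scaling for both regions, and 0 to 2 without each library. In the 3' UTR they numbered 3, 0 with 1 scaling, and 1 to 2 without each library. In introns they numbered 5, and 1 to 5 without each library. The cause of these differences was not tested.

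Same-numbered libraries deviated together at correlations of 0.13, 0.07 and 0.23 across genes for replicates 2, 3 and 4, against -0.16 to 0.01 for other pairs, so the pairing is not settled. With a replicate block 30 CDS genes changed, 29 of them higher, and 1, 3 and 5 genes changed in the 5' UTR, 3' UTR and introns relative to the CDS. For the paralog ratios the block cannot move the difference, by construction. Replicates of a group differed by more than sampling noise (chi-square per degree of freedom 1.95 to 4.85). Depth limits the 3' UTR and intron results most, where 8 and 9 of the 32 genes had enough counts.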
